A study of Mus musculus with 22 samples.

Results

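Cholesterol synthesis was followed in single mouse astrocytes through 7 genes, Hmgcs1, Idi1, Fdft1, Sqle, Cyp51, Dhcr7 and Insig1, of the 23453 gene symbols in the deposited count table. They were chosen by symbol, as genes of sterol synthesis known to be controlled by the transcription factor SREBP2. No rule on their values was used, but earlier results of these data were known when they were chosen. Of the 7, 6 encode enzymes, and Insig1 encodes a protein that regulates SREBP2 and is itself one of its targets. All 7 had a read in at least 5 cells, the minimum used for every gene. The study recorded the calcium response of cultured cortical astrocytes to ethanol (EtOH) and then collected single cells of known response for RNA sequencing, to ask whether gene expression differed between response types. There were 6 S-type cells with a sustained response, 6 T-type cells with a transient response, 5 M-type cells with a mixed response and 5 nonresponsive (NR) cells.

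All 22 cells were primary astrocytes from the cortex of C57BL/6 pups aged 0 to 1 day, grown in medium with 10% fetal bovine serum and treated with cytosine arabinoside (10 µM, 12 h) before replating. All were kept without serum for 24 h, loaded with the calcium dye Fluo-4 AM and exposed to EtOH, with ATP applied at the end of each experiment. NR cells thus met EtOH as well, and no cell without EtOH served as a control. The paper chose its highest EtOH dose for these experiments because responses were most frequent at it, so NR means no response at that dose. Neither the labels nor the study's methods give the pup or culture of a cell, and the serial numbers in the library names run in a separate block for each type, so library order and type cannot be told apart. Each type was therefore treated as 1 sample, the spread between cells is given as a description, and no p-value between types was computed.

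Cells make cholesterol from acetyl-CoA through mevalonate, isoprenoid diphosphates, squalene and lanosterol. When sterols are scarce in the membrane of the endoplasmic reticulum, SCAP escorts SREBP2 to the Golgi, where proteases release the part that enters the nucleus and activates genes of the pathway, and when sterols are plentiful the INSIG proteins hold SCAP back. Since the blood-brain barrier keeps plasma lipoproteins out, the brain makes its own cholesterol, and astrocytes are a main source of it for neurons.

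Promoters are shown first because these genes are known to share a regulator. RefSeq windows on GRCm38.p6, from 250 bases before to 50 bases after each start, were found for 5 of the 7 genes (Hmgcs1, Idi1, Cyp51, Dhcr7 and Insig1) and for 12 of 14 other sterol enzymes. The bases before the start are printed below for Hmgcs1 (plus strand, chr13:119690101-119690350), Cyp51 (minus strand, chr5:4104747-4104947) and Insig1 (plus strand, chr5:28071162-28071362), each read 5′ to 3′ on the strand of the gene. The stretches are not equal in extent, as that of Hmgcs1 holds all 250 bases before the RefSeq start, while those of Cyp51 and Insig1 (201 bases each) stop at the GENCODE start, which lies upstream of it. These are the gene with a match of the sterol regulatory element core, TCACNCCAC, and the genes with most reads among those with 1 start and no such match. Capitals mark matches on either strand of that core, of the NF-Y box CCAAT and of the Sp1 box GGGCGG, which do not overlap one another here.
Hmgcs1: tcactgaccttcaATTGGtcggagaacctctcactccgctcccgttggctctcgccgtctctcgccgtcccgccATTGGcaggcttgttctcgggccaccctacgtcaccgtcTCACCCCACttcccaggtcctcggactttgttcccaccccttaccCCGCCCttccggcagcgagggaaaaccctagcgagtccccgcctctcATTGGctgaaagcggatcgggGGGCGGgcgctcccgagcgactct
Cyp51: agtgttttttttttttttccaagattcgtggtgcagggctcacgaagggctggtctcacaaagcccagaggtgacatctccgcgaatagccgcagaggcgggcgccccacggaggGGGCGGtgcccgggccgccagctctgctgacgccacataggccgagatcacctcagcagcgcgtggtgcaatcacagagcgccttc
Insig1: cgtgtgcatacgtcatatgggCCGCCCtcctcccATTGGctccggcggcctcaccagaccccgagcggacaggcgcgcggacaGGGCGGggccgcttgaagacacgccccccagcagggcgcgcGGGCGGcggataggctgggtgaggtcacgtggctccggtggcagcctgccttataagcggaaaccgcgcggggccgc
In Hmgcs1 the core lay at position -137 from the RefSeq start, with 3 NF-Y boxes and 2 Sp1 boxes in the same stretch. The Cyp51 stretch held 1 Sp1 box, with an NF-Y box at position -29 from the RefSeq start beyond the bases shown, and the Insig1 stretch held 1 NF-Y box and 3 Sp1 boxes. Over whole windows, the core was present in 1 of the 7 windows of the chosen genes, in 0 of 13 windows of the other enzymes and in 1.24% of all 32851 windows. The NF-Y box was in 5 of these 7 windows, 11 of 13 and 37.4% of all, and the Sp1 box was in 6 of 7, 11 of 13 and 35.7% of all. A match of letters is a description and no test of binding.

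Depth differed between cells, from 2937786 to 22131076 reads. S-type cells had 12229280 to 16254761 reads and T-type cells 2937786 to 19279519. M-type cells had 19030121 to 22131076 and NR cells 15057892 to 19930655. Normalized counts are counts over a size factor per cell (median of ratios), and T-type cells 2 and 3 had the smallest factors (0.276 and 0.183), so that 1 read weighs more in them. The astrocyte label was checked against a list of 10 markers, all of which were read in every type. Of these 10 markers 8 were read in 22 of 22 cells, among them Slc1a3, Vim, Gfap, Aqp4 and Sox9. In counts scaled to a common library total (CPM), Gfap fell as low as 0.10 and Aqp4 as low as 0.16. Of 10 markers of the oligodendrocyte lineage 7 or 8 were read in each type. Sox10 had no read in any type, Mog none in S-type, T-type or M-type cells and Mag none in T-type, M-type or NR cells. The summed level of these 10 lineage markers ran from 34.0 to 899 CPM in S-type cells and from 212 to 3329 CPM in T-type cells. It ran from 143 to 2235 CPM in M-type and from 212 to 492 CPM in NR cells, and was highest in T-type cell 3. The summed level of 6 microglial markers reached at most 34.5 CPM, in an NR cell. That of 5 neuronal markers had a median of 78.1 CPM over the 22 cells and reached 2048 CPM in S-type cell 2. This cell also had the lowest summed level of the 10 astrocyte markers (4751 CPM). The sum of 5 endothelial markers reached 200 CPM, in T-type cell 5, and that of 5 mural and fibroblast markers 87.3 CPM, in NR cell 5. Reads are amplified copies without molecular identifiers, so intervals below cover counting error only.

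All 7 genes were expressed in each response type, with differences between types making up from 0.370% (Dhcr7) to 12.8% (Insig1) of the variance between cells on the log2 scale. Levels per kilobase of merged exon allow genes to be compared with each other, although the spread of reads along the transcripts was not examined. On this scale the mean normalized count per kb over 22 cells was 1532 for Hmgcs1, 1340 for Cyp51, 918 for Sqle, 197 for Fdft1, 154.6 for Insig1, 14.4 for Dhcr7 and 8.47 for Idi1. The SD over cells was 1600 for Hmgcs1, 1307 for Cyp51 and 701 for Sqle, so these 3 did not differ beyond their spread, and neither did Fdft1 and Insig1 (SD 125 and 139) or Dhcr7 and Idi1 (SD 19.5 and 16.6). Hmgcs1, Cyp51 and Sqle had the highest means, Fdft1 and Insig1 intermediate ones and Dhcr7 and Idi1 the lowest. The spread does not set these groups apart, as the SD of Hmgcs1 exceeded its mean. Medians per kb had the same order, at 1259, 977 and 816, then 205 and 138, then 6.31 and 2.29. All genes were measured in the same cells, so these SDs do not measure differences within a cell. All 22 cells had a read of Hmgcs1, Fdft1, Sqle, Cyp51 and Insig1, whereas Idi1 and Dhcr7 were each read in 18 cells, and in 16 each after every cell was thinned to 2937786 reads.

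**Figure D1:**
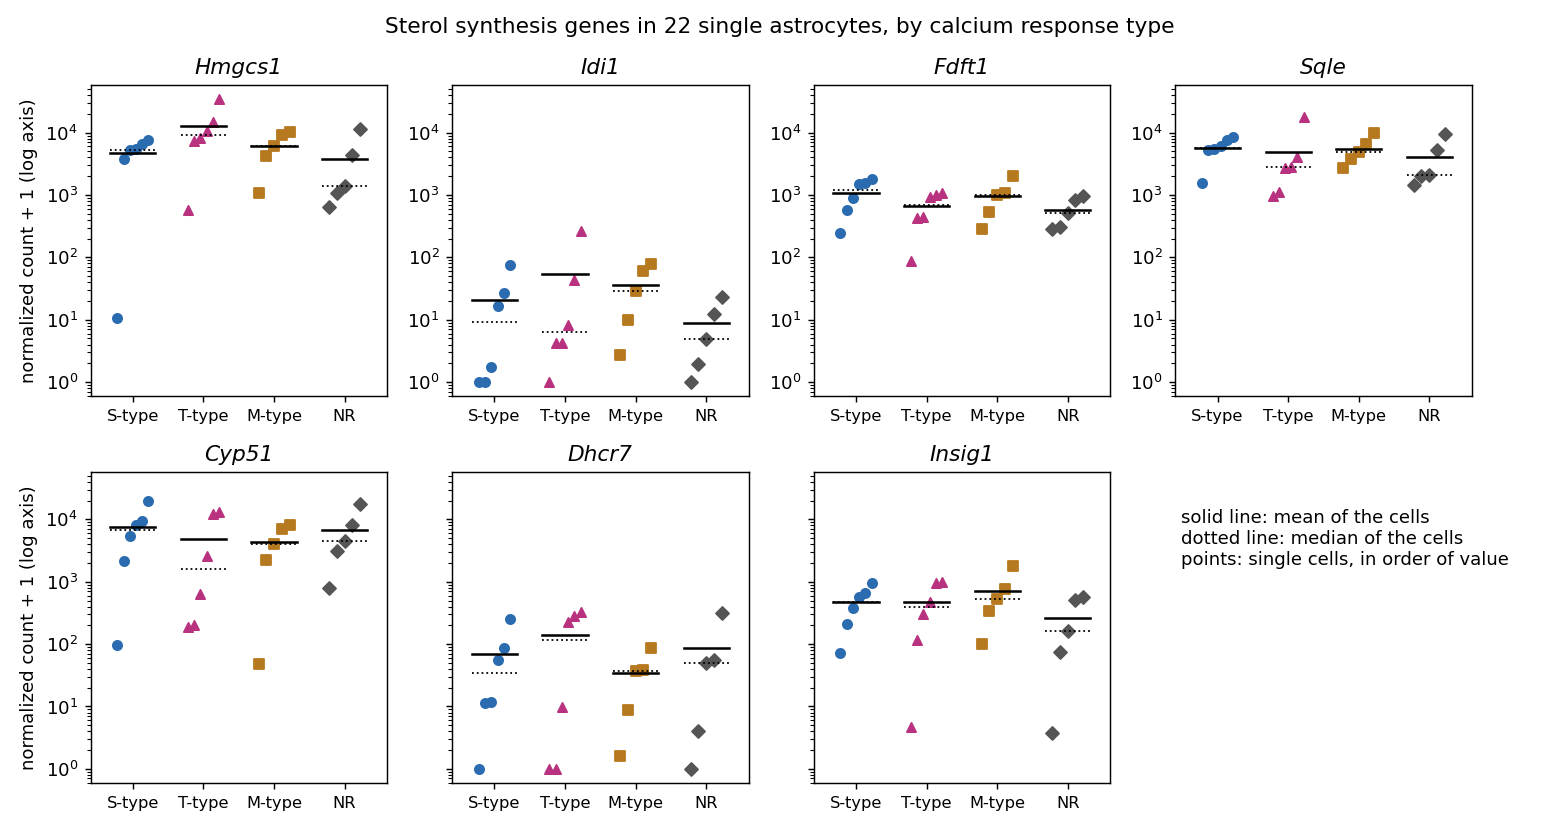
Normalized count plus 1 (log axis) of the 7 sterol genes in each of 22 astrocytes, by response type (6 S-type, 6 T-type, 5 M-type, 5 NR), where each point is a cell and solid and dotted lines are the mean and the median. The types overlap for every gene, and single cells lie far below the rest, such as the S-type cell at 9.76 for Hmgcs1 and the M-type cell at 46.9 for Cyp51.

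Hmgcs1 (chromosome 13, 119690379 to 119708260, plus strand, GRCm38) encodes the cytosolic synthase at the head of the mevalonate pathway. Its normalized count ran from 9.76 through a median of 5347 to 7599 in S-type cells and from 571 through 9321 to 34558 in T-type cells. In M-type cells it was 1087, 9303, 10344, 4194 and 6147, and in NR cells 11513, 4446, 1095, 1410.3 and 636. In normalized counts T-type cells were the highest as a group, with 4 of 6 above every S-type cell, but 1 T-type cell lay below every NR cell. This depends on the scale. In CPM only T-type cells 3 and 4 (930 and 2884) were above every S-type cell (at most 709). T-type cells 1 and 2 were at 477 and 180 CPM. The mean was 4779 ± 2666 (SD, n = 6) in S-type and 12659.8 ± 11699 (SD, n = 6) in T-type cells. It was 6215 ± 3774 (SD, n = 5) in M-type and 3820.05 ± 4554 (SD, n = 5) in NR cells. Reads of the antisense transcript Gm48342, which overlaps its exons, could not be separated if counting ignored strand.

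Idi1 (chromosome 13, 8885501 to 8892451, plus strand) encodes the isomerase of isopentenyl diphosphate, which supplies the building blocks of isoprenoids. It was the least read of the 7, with 600 reads over all cells and 84 of them in T-type cells. Normalized counts ran from 0 through a median of 8.25 to 75.3 in S-type and from 0 through 5.25 to 267 in T-type cells. They were 27.5, 76.3, 59.1, 8.82 and 1.73 in M-type cells and 11.5, 3.97, 22.3, 0 and 0.927 in NR cells. M-type was the one type with a read of Idi1 in every cell, and 3 of its 5 cells were above every NR cell. T-type cell 3 alone gave 82.8% of the T-type level, from 49 reads at the lowest depth of the series. Exons of Idi1 overlap those of Gm48574 on the opposite strand.

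Fdft1 (chromosome 14, 63145150 to 63179578, minus strand) encodes squalene synthase, the first enzyme committed to sterols, and Sqle (chromosome 15, 59315077 to 59331192, plus strand) encodes squalene epoxidase, which acts next. Fdft1 ran from 246 through a median of 1185.0 to 1836 in S-type and from 87.0 through 680.4 to 1078 in T-type cells. It was 529, 2010.3, 1073, 1000.2 and 283 in M-type and 844, 961, 309.9, 509.6 and 287 in NR cells. Together with Sqle it was the steadiest of the 7, with an SD on the log2 scale of 1.11 for Fdft1 and 1.10 for Sqle over 22 cells against a median of 2.71 over genes with a mean normalized count of 10 or more. Sqle ran from 1567 through 5779 to 8598 in S-type and from 946 through 2767 to 17656 in T-type cells. It was 3745, 9835, 6522, 4982 and 2669 in M-type and 9459, 2103, 5315, 1463 and 2031 in NR cells. For both genes S-type had the highest mean, 1094 ± 621 (SD, n = 6) for Fdft1 and 5751 ± 2416 (SD, n = 6) for Sqle, and the S-type cells overlapped those of every other type. Exons of Fdft1 overlap those of Ctsb on the opposite strand.

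Cyp51 (chromosome 5, 4081145 to 4104746, minus strand) encodes the demethylase that acts on lanosterol, and Dhcr7 (chromosome 7, 143823145 to 143848410, plus strand) encodes a reductase of the last steps to cholesterol. Cyp51 ran from 96.8 through a median of 6807 to 19952 in S-type and from 190.02 through 1624 to 12911 in T-type cells. It was 46.9, 7142, 8091, 2239 and 4074 in M-type and 17918, 8083, 4557, 785 and 3072 in NR cells. Of the 22 cells, 16 lay at 2182 or above, and the 6 below 1000 (chosen after the values were seen) were T-type cells 1, 2 and 4, S-type cell 1, M-type cell 1 and NR cell 4. Hmgcs1 was not low in all of the same cells, at 10449.7, 8193 and 34558 in T-type cells 1, 2 and 4, 5269 in S-type cell 1, 1087 in M-type cell 1 and 1410.3 in NR cell 4. Exons of Cyp51 overlap those of Akap9 on the opposite strand.

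Dhcr7 had the widest spread of the 7, with an SD on the log2 scale of 2.98 over 22 cells. Its normalized count ran from 0 through a median of 33.0 to 251 in S-type and from 0 through 116 to 328 in T-type cells. It was 0.626, 37.8, 35.6, 7.78 and 86.8 in M-type and 317 (NR cell 1), 55.6, 48.2, 2.99 and 0 in NR cells. High and low cells occurred in each type, and NR cell 1 gave 74.8% of the NR level.

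Insig1 (chromosome 5, 28071363 to 28078662, plus strand) encodes the retention protein described above. Its normalized count ran from 70.1 through a median of 469 to 944 in S-type and from 3.63 through 392 to 980 in T-type cells. It was 97.6, 1805, 776, 343 and 521 in M-type and 515, 161.7, 72.6, 563 and 2.78 in NR cells. The M-type mean of 708 ± 661 (SD, n = 5) was the highest and the NR mean of 263 ± 259 (SD, n = 5) the lowest, and the cells of these types overlapped.

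Comparing T-type with S-type cells asks how a transient and a sustained response differ, and 3 of the 7 genes were at least 2-fold higher in T-type and 0 at least 2-fold lower. Of 12698 genes tested, 26% were at least 2-fold higher in T-type, 32.3% at least 2-fold lower and 58.3% apart in either direction. Hmgcs1 was higher by 1.41 on the log2 scale (95% counting interval 1.39 to 1.43), Idi1 by 1.45 (1.05 to 1.84) and Dhcr7 by 1.02 (0.83 to 1.21). Each of these calls was lost when a single cell was left out. Without T-type cell 4 the Hmgcs1 difference was 0.79, without the same cell that of Dhcr7 was 0.56, and without T-type cell 3 that of Idi1 was -0.82. The other 4 were under 2-fold, with log2 ratios of -0.73 for Fdft1, -0.23 for Sqle, -0.65 for Cyp51 and 0.01 for Insig1. The T-type mean was thus higher for Hmgcs1, Idi1 and Dhcr7, lower by less than 2-fold for Fdft1, Sqle and Cyp51 and nearly equal for Insig1. Cells of the 2 types overlapped for all 7 genes, where 0.772% of all genes did not overlap. Summed levels of proliferation genes moved with this comparison, as 9 of 10 G2/M genes were at least 2-fold lower in T-type cells, and their part in it was not tested. Without T-type cell 3, Sqle and Cyp51 reached log2 ratios of -1.30 and -1.19.

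Comparisons with NR ask how each responding type differed from cells without a response, and all 3 share the same 5 NR cells. In T-type cells 2 of 7 genes were at least 2-fold higher than in NR, Hmgcs1 by 1.73 (1.71 to 1.75) and Idi1 by 2.80 (2.30 to 3.31) on the log2 scale, against 28.7% of 12695 genes, and 0 were at least 2-fold lower, against 32.5%. In S-type cells 1 of 7 was at least 2-fold higher, Idi1 by 1.34 (0.90 to 1.80), against 25.1% of 12717 genes, and 0 were at least 2-fold lower, against 22.4%. In M-type cells 2 of 7 were at least 2-fold higher, Idi1 by 2.16 (1.75 to 2.59) and Insig1 by 1.43 (1.36 to 1.5003), against 19.8% of 12710 genes, and 1 was at least 2-fold lower, Dhcr7 at -1.33 (-1.52 to -1.14), against 28.1%. In either direction the counts were 2, 1 and 3 of 7, against 61.2%, 47.5% and 47.9% of all genes, so the 7 were called at shares not above those of all genes. The cells of NR and of each responding type overlapped for all 7 genes, where 0.993% (T-type), 0.409% (S-type) and 0.598% (M-type) of all genes did not overlap. Idi1 was the one gene at least 2-fold higher than NR in each responding type, on 84 reads in T-type, 158 in S-type and 300 in M-type cells against 58 in NR cells. Proliferation genes moved with these comparisons too, with 10 of 10 S phase and 10 of 10 G2/M genes at least 2-fold higher in S-type than in NR cells, 8 and 3 of 10 in T-type and 5 and 6 of 10 in M-type, while 2 of 10 G2/M genes in T-type and 4 of 10 in M-type were at least 2-fold lower, and their part in the values was not tested. The 3 microglial markers tested were at least 2-fold lower in S-type and in M-type than in NR cells, where their list summed to 0 to 34.5 CPM.

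Single cells decided several of these values. Without T-type cell 3 the Idi1 difference to NR was 0.52, without S-type cell 5 it was 0.14 in S-type, and without M-type cell 2 it was 1.65 in M-type. Without M-type cell 2 the Insig1 difference was 0.72, and without NR cell 1 that of Dhcr7 was 0.34 in place of -1.33. NR cell 1 was the highest NR cell for Hmgcs1, Sqle, Cyp51 and Dhcr7. Without it 6 of 7 genes were at least 2-fold higher in S-type than in NR cells (28% of all genes), 4 of 7 in T-type (30.4%) and 4 of 7 in M-type (22.4%). When the type level was the median of its cells in place of the mean, 5 of 7 genes were at least 2-fold higher in S-type than in NR cells (27.2% of all genes), 4 of 7 in M-type (23.01%) and 3 of 7 in T-type (15.8%).

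The median log2 ratio of the 7 genes was 0.01 for T-type versus S-type (all genes -0.07), 0.72 for T-type versus NR (all genes -0.05), 0.50 for S-type versus NR (0.03) and 0.70 for M-type versus NR (-0.20). Against NR, 6 of 7 genes had a ratio above 0 in T-type, 6 of 7 in S-type and 5 of 7 in M-type. Cyp51 had ratios of -0.52 in T-type, 0.13 in S-type and -0.67 in M-type cells, and Dhcr7 had 0.72, -0.30 and -1.33. Without NR cell 1 Cyp51 was at 0.22 in T-type and 0.07 in M-type, and Dhcr7 at 1.37 in S-type and 0.34 in M-type. Without S-type cell 4 Cyp51 was at -0.44 in S-type. For all 7 genes, the counting intervals were narrower in each comparison than the range given by leaving out single cells.

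**Figure D2:**
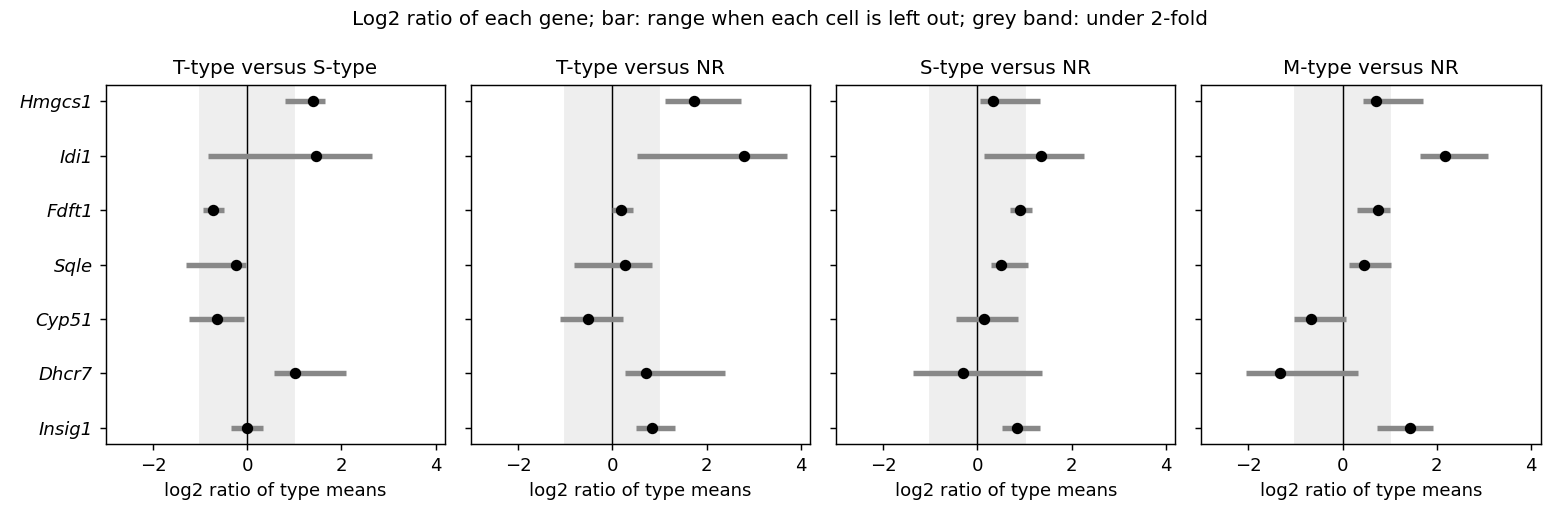
Log2 ratio of type means for each of the 7 genes in 4 comparisons of response types, where points are all cells, bars span the values when each cell is left out in turn and the grey band marks differences under 2-fold. Idi1 in T-type versus S-type has a point at 1.45 and a bar from -0.82 to 2.66.

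Cells of each response type ranged from low to high in the combined level of the 7 genes. A score was formed for each cell as the mean over the 7 genes of log2(normalized count + 1). Its lowest, median and highest values were 6.54, 9.04 and 10.49 in S-type, 6.07, 8.60 and 10.66 in T-type, 6.96, 8.72 and 10.37 in M-type and 6.13, 8.47 and 10.22 in NR cells. Differences between types made up 3.32% of the variance of the score, and a median of 11.9% of the variance of single genes on the log2 scale, against a median of 15.0% over genes with a mean normalized count of 10 or more. The summed level of the 7 genes ran from 211 to 3457 CPM over the cells.

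Low-scoring cells were not all alike in other genes. S-type cells 1 and 2, with scores of 6.89 and 6.54, had summed levels of 10 S phase genes of 3293 and 6042 CPM and of 10 G2/M genes of 6532 and 3980 CPM, against medians of 373 and 59.6 CPM over the 22 cells. T-type cell 5, with a score of 7.65, had 5721 and 1642 CPM. T-type cell 2, NR cell 5, M-type cell 1 and NR cell 4 had low scores too (6.07, 6.13, 6.96 and 7.25), with S phase sums of 79.1, 374, 122 and 99.9 CPM. Over all 22 cells the score had a Spearman's rho of 0.21 with the S phase score and -0.16 with the G2/M score, and their part in it was not tested. Its rho was 0.54 with the number of genes with a read, 0.19 with the size factor, -0.03 with total reads, 0.27 with the astrocyte markers and 0.39 with the oligodendrocyte lineage list, which summed to 3329 CPM in the cell with the highest score, T-type cell 3, and whose part in the score was not tested.

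Gene by gene, the 7 tended to be high in the same cells. All 21 pairs had a positive Spearman's rho over the 22 cells, with a median of 0.36 (0.07 to 0.74), whereas the 70146090 pairs of genes with a mean normalized count of 10 or more had a median of 0.04 and 57.2% of them were positive. Of the 21 pairs, 9 were above 0.43, the value that 5% of all pairs exceed. The consecutive enzymes Fdft1 and Sqle formed the closest pair (0.74), followed by Idi1 with Sqle (0.65), Hmgcs1 with Dhcr7 (0.64) and Sqle with Cyp51 (0.63). Insig1 was the most apart, at 0.07 with Idi1, 0.08 with Sqle and at most 0.36, with Dhcr7. Points of a pair share the library, its depth and its size factor. With the mean of each type subtracted the median was 0.38, with the number of genes read regressed out 0.33, and with each cell left out it stayed between 0.31 and 0.43.

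**Figure D3:**
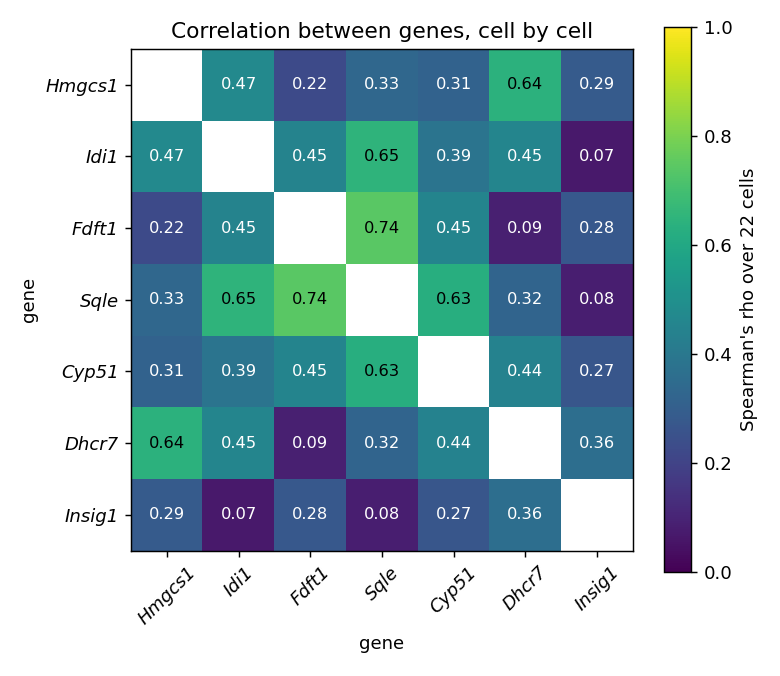
Spearman's rho between the normalized counts of each pair of the 7 genes over 22 cells, as numbers and colour. Fdft1 with Sqle is highest at 0.74, and the Insig1 row holds values from 0.07 to 0.36.

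Among 11838 other genes above the same level, the one most like the score over the 22 cells was a further enzyme of the pathway, Hsd17b7, the sterol ketone reductase (rho 0.88). It was followed by Ankfy1 (0.88), an endosomal protein gene, Xaf1 (0.87) and Parp9 (0.81), which are known as interferon-induced genes, and the zinc finger gene Zfp948 (0.80). Xaf1 was read in 14 cells, Parp9 in 15 and Zfp948 in 18, so their ranks rest in part on cells without a read. Msmo1, the sterol methyl oxidase, ranked 7 and Fdps, the farnesyl diphosphate synthase, ranked 8 (both 0.79), and Nsdhl, the sterol dehydrogenase, ranked 95 (0.63). Of 14 other sterol enzymes, 4 were among the 1% of genes most like the score and 7 among the top 10%, all 14 had a positive rho (66.0% of all genes) and their median was 0.41 (0.10 over all genes). The weakest were Mvk (0.01), Acat2 (0.11), Lbr (0.14), a lamin receptor that is also a sterol reductase, and Ebp (0.22). After the number of genes read was regressed out, 4 of the 14 were again in the top 1%, with Msmo1 at rank 1, Fdps at 3 and Hsd17b7 at 5. Genes that vary with the score share its libraries, and these ranks are a description.

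**Figure D4:**
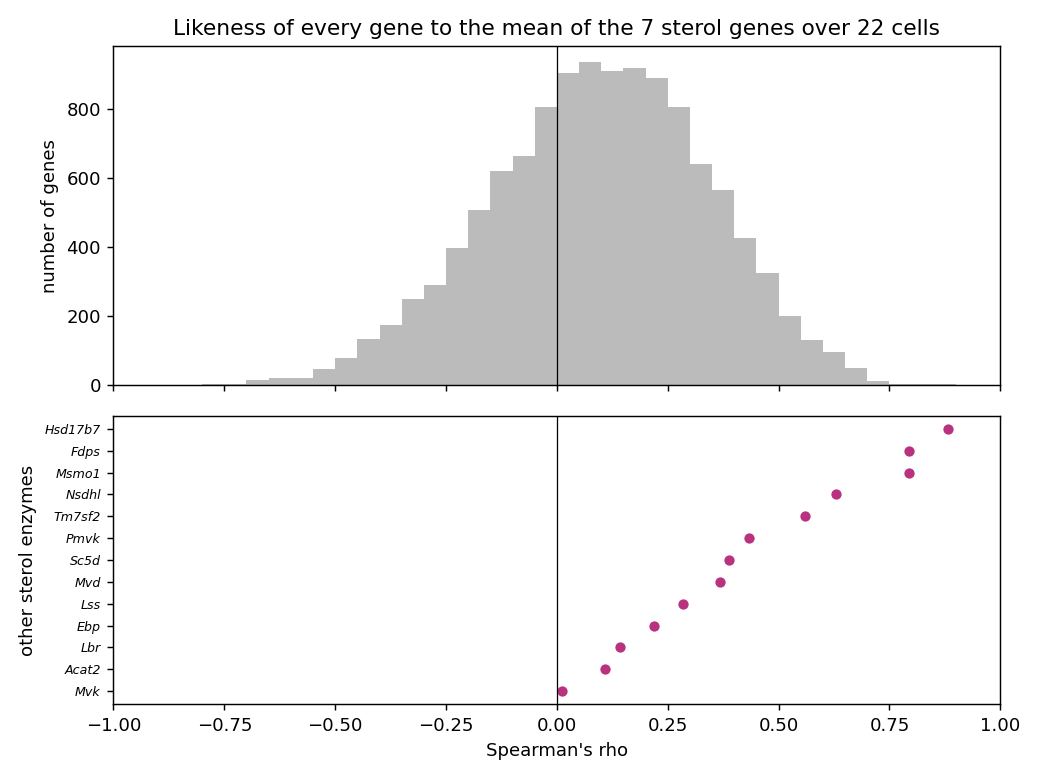
Spearman's rho of each gene with the mean log2 level of the 7 sterol genes over 22 cells, as a histogram of 11838 genes (top) and for 13 of 14 other sterol enzymes (bottom). The histogram centres near 0.10, while Hsd17b7, Msmo1 and Fdps lie at 0.88, 0.79 and 0.79.

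Hsd17b7 and Msmo1, chosen here for their rank by this same measure, illustrate the cells at either end of the score. Hsd17b7 was at 17471, 6044 and 3877 in the 3 cells with the highest score, T-type cell 3, S-type cell 5 and M-type cell 2, and at 0, 699 and 3.25 in the 3 cells with the lowest, T-type cell 2, NR cell 5 and S-type cell 2. Msmo1 was at 25042, 20306 and 19852 in the first 3 and at 17147, 472 and 43.4 in the last 3. T-type cell 2 was mixed, with high normalized counts of Msmo1 and Hmgcs1 (8193) beside no read of Hsd17b7, Fdps, Dhcr7 or Tm7sf2. It had 6319 genes with a read, the fewest of any cell. The high values depend on its small size factor (0.276). On the CPM scale its Hmgcs1 was 180, below S-type cells 1, 3, 4, 5 and 6 (316 to 709) and above S-type cell 2 (0.632). The mean log2 level of the 14 other enzymes had a rho of 0.87 with the score, and 0.73 with the number of genes read regressed out of both.

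**Figure D5:**
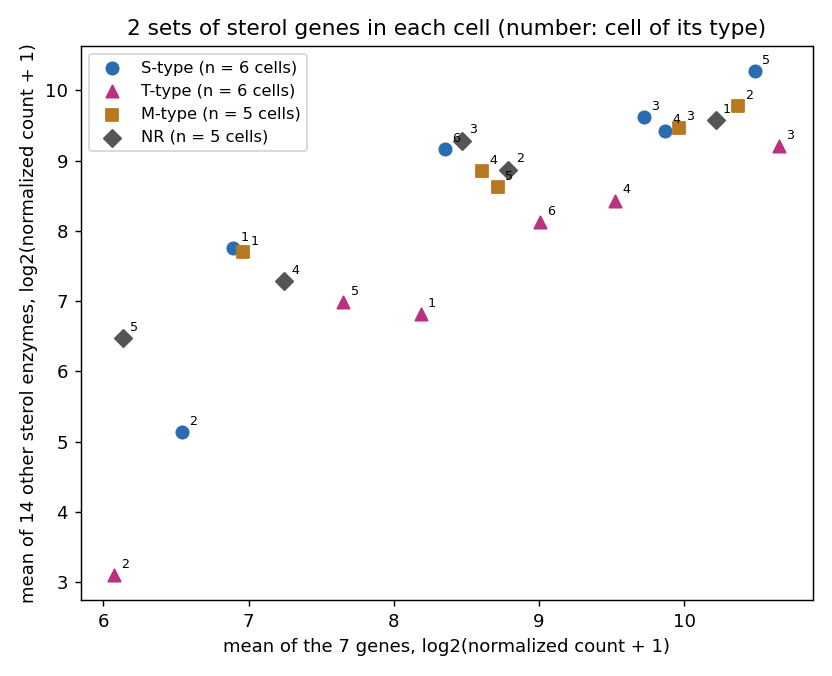
Mean log2(normalized count + 1) of the 7 sterol genes (horizontal) and of 14 other sterol enzymes (vertical) in each cell, where symbols are response types and numbers name the cell within its type. The 22 cells lie along a rising band with a rho of 0.87, and each type spans it from low to high.

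Between response types, the 14 other enzymes were at least 2-fold apart in both directions, at shares near or below those of all genes. In T-type versus S-type 1 was at least 2-fold higher and 3 at least 2-fold lower, with a median log2 ratio of 0.11 (all genes 26% and 32.3%, median -0.07). In T-type versus NR the counts were 4 and 3 with a median of 0.25 (all genes 28.7% and 32.5%, median -0.05). In S-type versus NR they were 3 and 2 with a median of 0.22 (25.1% and 22.4%, 0.03), and in M-type versus NR 2 and 4 with a median of 0.22 (19.8% and 28.1%, -0.20). Tm7sf2, a sterol reductase, was the one sterol enzyme whose cells did not overlap in a comparison, where 0.772% of all genes did not overlap. It was at 0 to 240.0 in T-type and 290 to 1400 in S-type cells (log2 ratio -2.71), and was read in 4 of 6 T-type cells. Lss, the lanosterol synthase that stands between Sqle and Cyp51, was at 35.5 ± 55.7 (SD, n = 6) in T-type and 543 ± 347 (SD, n = 6) in S-type cells (log2 ratio -3.94), with 1 S-type cell at 0. Fdps was higher than in NR by 1.24, 1.10 and 2.05 on the log2 scale in T-type, S-type and M-type cells. It was at 0.85 in T-type without T-type cell 4 and at 0.40 in S-type without S-type cell 5. In M-type it stayed at 1.27 or above with any cell left out. Mvd, the mevalonate diphosphate decarboxylase, was at 2.70, 2.12 and 0.33. Pmvk and Mvk, the mevalonate kinases, were at -0.46, -1.42 and -1.01 and at -0.89, -0.68 and -1.47 against NR. Without NR cell 4, which gave 73.5% of the NR level of Mvk, Mvk was at 0.70, 0.92 and 0.12. Pmvk stayed below 0 in each type with any cell left out.

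The remaining enzymes differed in direction as well. Ebp, the sterol isomerase, was at 2.27 in T-type versus NR, and at -1.10 without T-type cell 2. Lbr was at 0.80 in T-type, 2.23 in S-type and 1.30 in M-type versus NR. It was at -1.57 in T-type without T-type cell 3 and at 0.61 in M-type without M-type cell 2. In S-type it stayed at 1.73 or above with any cell left out. Hsd17b7 was 2.22-fold higher in T-type than in NR, with a log2 ratio of -0.92 without T-type cell 3. Log2 ratios to NR in T-type, S-type and M-type cells were 0.88, 0.80 and 0.67 for Msmo1 and 0.45, -0.33 and 0.35 for Nsdhl. They were 0.04, -0.79 and 0.14 for Sc5d, the sterol desaturase, and -0.06, 0.11 and -0.19 for Acat2, the thiolase that makes acetoacetyl-CoA, so neither was 2-fold apart from NR in a type.

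Of 6 genes that regulate SREBP, 0 were among the 10% of genes most like the score and 5 had a positive rho (66.0% of all genes), with a median of 0.20 (0.10 over all genes). Srebf2, which encodes SREBP2, had a rho of 0.37, Srebf1 0.22, Insig2 0.20, the protease genes Mbtps1 0.20 and Mbtps2 0.08 and Scap, which encodes the escort protein, -0.12. In T-type versus S-type 0 of 6 were at least 2-fold higher (26% of all genes) and 3 at least 2-fold lower (32.3%), with log2 ratios of -3.005 for Mbtps2, -1.66 for Insig2 and -1.35 for Srebf1, and the median was -0.99 (all genes -0.07). In T-type versus NR the same genes were at -2.81, -2.29 and -1.60 and the median was -1.12 (all genes -0.05), with 0 of 6 at least 2-fold higher (28.7%) and 3 lower (32.5%). In S-type versus NR 0 of 6 were 2-fold apart in either direction (47.5% of all genes). In M-type versus NR Mbtps2 was at 1.64 (19.8% of all genes higher), Mbtps1 at -1.18 and Srebf1 at -1.12 (28.1% lower). Without NR cell 5 Srebf1 was at 0.59 in T-type and 1.06 in M-type versus NR, and Mbtps1 at -0.79 in M-type. Without M-type cell 1 Mbtps2 was at 0.82 in M-type. In T-type versus S-type Srebf1 was at -0.07 without S-type cell 2, and Insig2 at -0.49 without S-type cell 1. Against NR, Mbtps2 and Insig2 in T-type stayed at -2.33 and -1.70 or lower with any cell left out. Srebf2 was at -0.63 in T-type versus S-type, and against NR at -0.40 in T-type, 0.23 in S-type and -0.73 in M-type cells, while Scap against NR was at -0.65, -0.37 and -0.80.

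Fatty acid synthesis, which shares SREBP control, was followed in 9 genes. Of these, 1 was among the 10% of genes most like the score, Scd2, a desaturase and the most read of the list (rho 0.50). Acly, the citrate lyase that supplies acetyl-CoA to both pathways, had a rho of -0.07 and Fads1, a desaturase of polyunsaturated fatty acids, 0.17. Against S-type, 1 of 9 was at least 2-fold higher in T-type cells (26% of all genes), Acly at 2.03 on the log2 scale, which was -0.88 without T-type cell 2, and 3 were at least 2-fold lower (32.3%). Against NR the counts were 2 higher and 2 lower in T-type (28.7% and 32.5%), 2 and 0 in S-type (25.1% and 22.4%) and 0 and 2 in M-type cells (19.8% and 28.1%). Against NR, Scd2 was at -0.61, -0.66 and -0.10 and Fads1 at -0.33, 0.02 and -0.26 in T-type, S-type and M-type cells.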

How the data were processed

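RNA of 22 single astrocytes was amplified as antisense RNA, sequenced and counted by the authors, who trimmed the reads, aligned them with STAR to GRCm38 and assigned uniquely aligned reads to exons with VERSE, a modified HTSeq. The tool versions and the use of strand in counting are not given in the sources used here. The deposited values are raw counts per gene symbol and cell, without normalization. Cells were grouped by the response in the labels.

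Each count was divided by the size factor of its cell (median of ratios, from 3670 genes detected in all 22 cells), and a type's level was the average of its cells. Where a type had no read of a gene, 3 reads were assumed for the type as a whole. Only genes detected in at least 5 cells were compared. A gene was called at a ratio of at least 2-fold. Intervals (95%) were exact binomial (Clopper-Pearson) limits on how reads divide between 2 types. Since no source ties a cell to an animal or culture, a type was 1 sample and no test was run. Correlations were Spearman's rho over the 22 cells. Python 3.11.15, NumPy 2.4.6, pandas 2.3.3, SciPy 1.17.1, edgeR 4.0.16 (TMM factors, R 4.3.3) and matplotlib 3.10.9 were used, and the scripts were tested on simulated data. Gene positions and exon lengths came from GENCODE vM21 on GRCm38, promoters from RefSeq. The depth of 2937786 to 22131076 reads per cell sets the width of the intervals.

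The 7 genes and all lists were chosen with earlier results of these data known. Named were the 7 genes, 14 other sterol enzymes, 6 genes of SREBP regulation, the 3 most read of 9 genes of fatty acid synthesis and the 5 genes most like the score. Some genes of the pathway are not reported here. Alternatives were CPM, TMM factors, pooled reads, medians, log means, a pseudocount of 1, other fold thresholds and filters, 5 reads for detection, thinning and leaving out each cell. Another 4 were added after the values were seen, namely type means subtracted, genes read regressed out, CPM for likeness and genes scaled to unit variance.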

Additional observations from a re-analysis of the deposited data

Results flagged for a closer look

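Dixon's test on log2(normalized count + 1) within each response type marked 4 of 32 groups tested (7 genes and the score in 4 types), where chance marks about 1 group in 20. S-type cell 2 stood apart at 9.76 normalized counts of Hmgcs1, from 9 reads, while the other S-type cells had 3799 to 7599. The same cell stood apart for Sqle, at 1567 against 5287 to 8598. It had the highest summed level of neuronal markers of all cells (2048 CPM), whose part in these values was not tested. T-type cell 2 stood apart for Fdft1, at 87.0 against 426 to 1078 in the other T-type cells, at the second lowest size factor of the series (0.276). M-type cell 1 stood apart for Cyp51, at 46.9 from 75 reads, against 2239 to 8091 in the other M-type cells, while its Sqle count was 3745.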

How the results depend on the processing

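No paired analysis was possible because no test between types was run. The library names carry a second number of unstated meaning that recurs between types for some cells, and it was not used. Of the main results with their alternatives, 231 values stayed within 1.5 times of a count or within the spread between cells, and 42 moved. In T-type versus S-type, where 3 of the 7 genes were at least 2-fold higher and 0 lower, the numbers higher and lower were 0 and 1 with mean CPM (all genes 16.7% and 37.9%), 1 and 2 with medians over cells (10.97% and 45.2%) and 1 and 1 with log means (8.52% and 51.9%), while pooled reads gave 0 higher (23.7%), a threshold of 1.5-fold 2 lower and of 4-fold 0 higher. Leaving out a cell gave 1 to 3 higher and 0 to 2 lower, with 1 higher and 2 lower without T-type cell 3, 1 higher without T-type cell 4 and 1 lower without T-type cell 6. In T-type versus NR (2 and 0), medians and log means each gave 1 lower (40.1% and 48.5% of all genes), 1.5-fold gave 4 higher and 4-fold 1 higher. Leaving out a cell gave 2 to 4 higher and 0 to 1 lower, with 4 higher without NR cell 1 and 1 lower without T-type cell 3 or 6. In S-type versus NR (1 and 0), medians gave 5 higher (27.2%), 1.5-fold 3 and 4-fold 0. Leaving out a cell gave 0 to 6 higher and 0 to 1 lower, with 6 higher without NR cell 1, 2 higher without S-type cell 1, 2 or 6 or NR cell 2 or 4, and 0 higher and 1 lower without S-type cell 5. In M-type versus NR (2 and 1), medians gave 4 higher and 0 lower (23.01% and 23.9%), 1.5-fold 4 and 2, and 4-fold 1 and 0. Leaving out a cell gave 1 to 4 higher and 0 to 2 lower, with 4 higher and 0 lower without NR cell 1, 1 higher without M-type cell 2 and 2 lower without M-type cell 3.

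The Idi1 ratio of T-type to S-type changed sign with pooled reads (-0.28), medians (-0.65) and without T-type cell 3 (-0.82) (-0.82 to 2.66 over all single omissions), and the Dhcr7 ratio of M-type to NR without NR cell 1 (0.34) (-2.05 to 0.34 over all single omissions). Among ratios under 2-fold, leaving out a single cell changed the sign of Insig1 in T-type versus S-type and of Dhcr7 in S-type versus NR. The same held for Fdft1 and Sqle in T-type versus NR and for Cyp51 against NR in each responding type. The cause was not tested. Of the 14 other sterol enzymes, 4 were among the top 1% of genes most like the score, 4 with type means subtracted, with genes read regressed out or with unit variance, 3 with CPM and 1 among genes read in every cell, where 3 of the 14 were ranked. The choice of scale moved the median of all genes in T-type versus S-type from -0.07 to -0.45 with CPM and -1.09 with log means, and that of the 7 genes from 0.01 to -0.36 and -0.79, so the direction of the 7 relative to S-type depends on it.

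Depth limits Idi1 most, with 600 reads in all. A cell without a read of Idi1 or Dhcr7 is one in which it was not detected at that depth, not one shown to lack it.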
